A study of Danio rerio with 14 samples.

Results

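The 9 genes described here were grouped around the planar cell polarity and non-canonical Wnt pathway that drives convergent extension in the zebrafish gastrula. They are wnt11, wnt5b, gpc4, vangl2, celsr1a, prickle1a, prickle1b, dvl2 and ezrb, of which ezrb is a cortical actin linker gene and not a core polarity gene. They were found as the rows whose gene name in the deposited tables equals one of these symbols. They are 9 of 14077 genes listed in at least 1 of 3 tables. The table for 53 mGy/h (0 yr) held 8 of them among 13714 genes, the table for 8.7 mGy/h (0 yr) 8 among 13263, and the table for 8.7 mGy/h (1 yr) all 9 among 12502. The gene wnt5b was listed in the 1 yr table only, so no 0 yr level of it can be given.

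Messenger RNA was sequenced from F1 embryos of the AB wild type strain at 5.5 hours after fertilization, about when gastrulation begins, with 100 pooled embryos in each sample. The parents had received gamma radiation during gametogenesis at 53 mGy/h or at 8.7 mGy/h, or had not been exposed. The groups were 53 mGy/h (0 yr) with 3 libraries, 8.7 mGy/h (0 yr) with 3, unexposed control (0 yr) with 2, 8.7 mGy/h (1 yr) with 3 and unexposed control (1 yr) with 3. Broods called 0 yr were collected 1 month after exposure, and 1 yr broods came from a later breeding of the same exposed and unexposed parents. Both 0 yr comparisons use the same control libraries, and the labels do not say which parents or clutches each library came from. The FDR values therefore measure spread between these libraries, which may not cover spread between clutches.

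Convergent extension narrows and lengthens the body axis as cells of the gastrula intercalate between their neighbours. Wnt11 and Wnt5 ligands act through Frizzled receptors, the glypican Gpc4 and Dishevelled, while the core polarity proteins Vangl, Prickle and Celsr align cells within the tissue. Signals then reach the actin cytoskeleton, and ezrin links cortical actin to the cell membrane. The zebrafish mutants silberblick (a Wnt11 gene), pipetail (wnt5b), knypek (gpc4) and trilobite (vangl2) have shortened body axes.

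Expression is given in RPM, read numbers scaled to the size of the library, as 1 number that the authors deposited for each group. The log2 change is the exposed minus the control log2 RPM. No spread between libraries accompanies these values. A gene is called lower or higher where the FDR in the authors' deposited table is under 0.05. The zero of that FDR seems to differ from that of the log2 change. At 53 mGy/h (0 yr) the pathway gene wls was called at -0.25 (FDR 0.0233), and rock2a at 0.24 was not (FDR 0.589). At 1 yr gna13a was called at 0.26 (FDR 0.00904), and rock1 at -0.26 was not (FDR 0.0861). Small falls at 53 mGy/h and small rises at 1 yr may thus be called more readily, which was not tested. The groups had a geometric mean of 22.6 to 27.7 M reads (megareads) per library or more. RPM is not corrected for transcript length, so levels are compared between groups and not between genes. In whole embryos, fewer cells of a type and less RNA per cell cannot be told apart.

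After parental exposure to 53 mGy/h, 4 of the 8 listed genes were lower at 0 yr (wnt11, prickle1b, gpc4 and vangl2) and ezrb was higher. The falls of wnt11 and prickle1b were about 4-fold and 5-fold, and those of gpc4 and vangl2 were 1.36-fold and 1.22-fold. Among all genes tested 43.6% were called, 21.5% lower and 22.1% higher. Of the 8 genes 50% were called lower and 12.5% higher, shares that rest on 4 genes and 1 gene and were not tested against those of the table. The median log2 change of the 8 genes was -0.37, against 0.12 for all genes. Among the 7232 genes with a mean of at least 10 RPM the median was also 0.12, and relative to it the 8 genes had a median of -0.48.

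**Figure D1:**
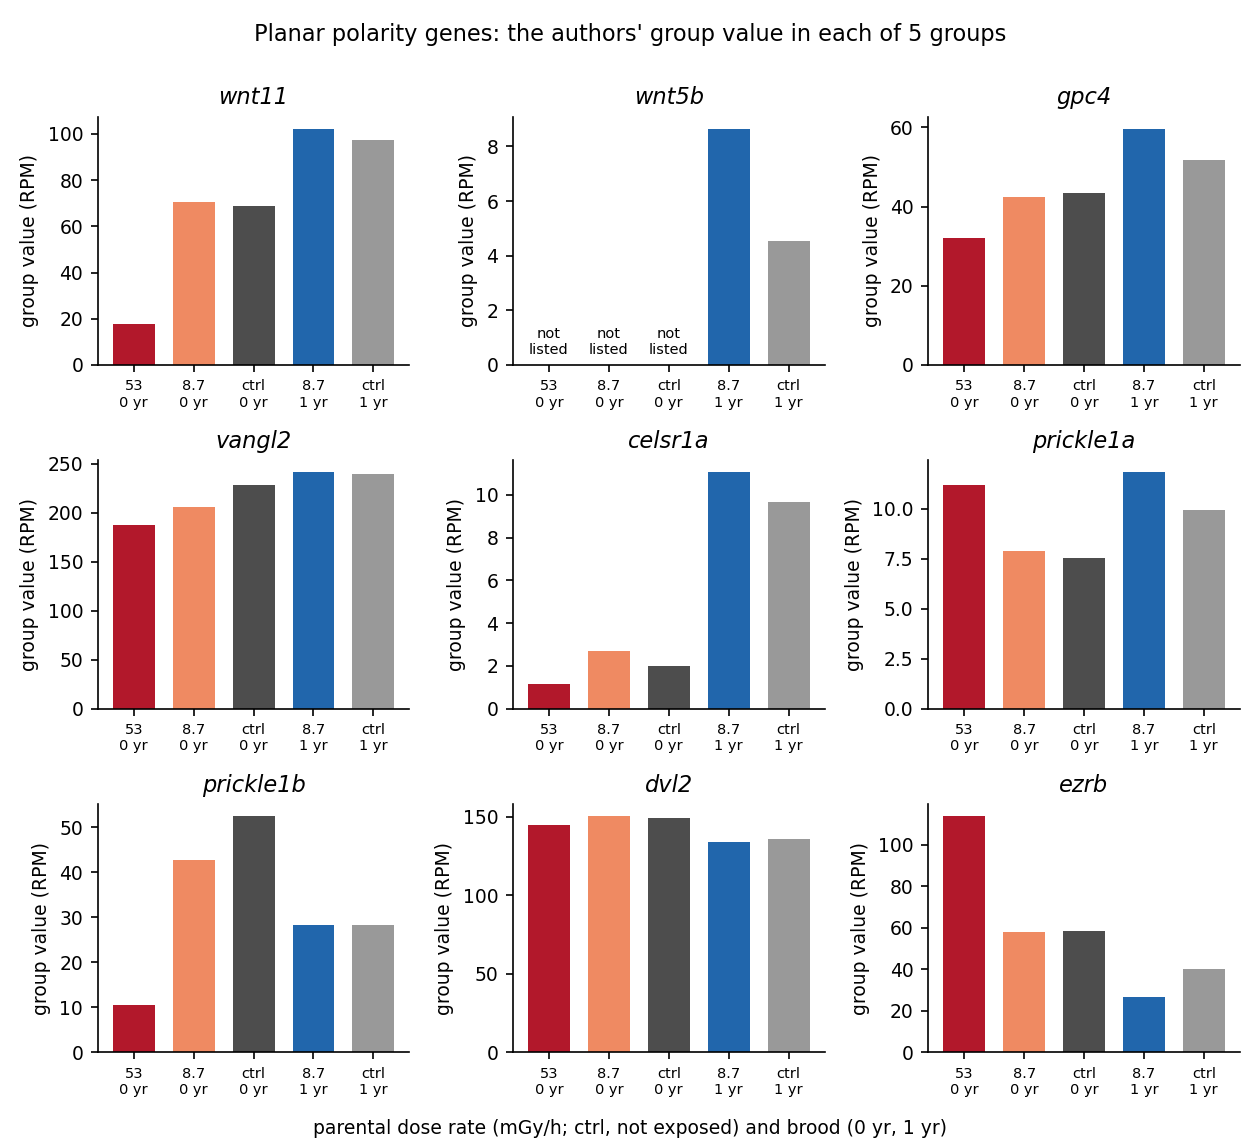
Group level in RPM (vertical axis, from 0, a scale for each gene) of the 9 planar polarity genes in the 53 mGy/h (0 yr), 8.7 mGy/h (0 yr), control (0 yr), 8.7 mGy/h (1 yr) and control (1 yr) groups. Each bar is 1 value given by the authors for a whole group, without error bars because no library values come with it. The bars for wnt11 and prickle1b are lowest at 53 mGy/h, 17.71 and 10.51 RPM, and that for ezrb is highest there, 114 RPM.

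Among the ligands, wnt11 stood at 17.71 RPM in 53 mGy/h (0 yr) embryos and at 68.81 RPM in 0 yr controls. Its log2 change was -1.96 (-2.07 relative to the median of well expressed genes), and 7.06% of the genes in the table had a lower change. The authors' deposited table gives it an FDR of 1.43e-31. The row is ENSDARG00000004256, on chromosome 5 from 35913452 to 35919964 (GRCz10, plus strand), and the current name of this identifier is wnt11f2, the gene mutated in silberblick. The name wnt11 now belongs to another gene, earlier called wnt11r, on chromosome 10 of the RefSeq assembly GRCz12tu. At the smallest depth found, these levels equal a geometric mean of 483 reads per library at 53 mGy/h and 1907 in controls.

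The glypican gene gpc4 encodes a heparan sulphate proteoglycan that presents Wnt ligands at the cell surface. It stood at 31.93 RPM in 53 mGy/h (0 yr) embryos and at 43.52 RPM in controls, a log2 change of -0.45 with an FDR of 0.00211 in the authors' deposited table. It lies on chromosome 14 from 30751572 to 30810745 on the minus strand. Its change was much smaller in size than that of wnt11.

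Among the core polarity genes, prickle1b and vangl2 were lower at 53 mGy/h, and prickle1a, celsr1a and dvl2 were not called. The cytoplasmic adaptor gene prickle1b, on chromosome 4 from 13964650 to 13996917, stood at 10.51 RPM in exposed embryos and at 52.48 RPM in controls. Its log2 change of -2.32 is the lowest of the 8 genes, with an FDR of 2.3e-19 in the authors' deposited table. Its paralogue prickle1a, on chromosome 25 from 291701 to 325877, stood at 11.19 RPM in exposed embryos and at 7.52 RPM in controls (log2 change 0.57, FDR 0.112 in the authors' deposited table), so it was not called. Of 183 other genes within 0.5 of the mean log2 RPM of prickle1a and within 0.1 of its log2 change, 35 were called. A rise of this size was thus mostly not detectable at this level. The paralogues had values of opposite sign, and their difference was not tested.

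The transmembrane gene vangl2, on chromosome 7 from 5202358 to 5253407, had 187.18 RPM in 53 mGy/h (0 yr) embryos and 228.48 RPM in controls. Its log2 change of -0.29 was called lower, with an FDR of 0.0165 in the authors' deposited table. Small falls at 53 mGy/h may be called more readily, as said above, and whether this holds for vangl2 was not tested. The atypical cadherin gene celsr1a, on chromosome 4 from 28202325 to 28346056, had 1.13 RPM in exposed embryos and 1.98 RPM in controls. Its log2 change of -0.81 was larger in size than that of vangl2 but was not called (FDR 0.0657 in the authors' deposited table). These levels of celsr1a equal geometric means of 30.8 reads per library in exposed embryos and 54.9 in controls at the smallest depth found. Of 54 other genes within 0.5 of its mean log2 RPM and within 0.1 of its log2 change, 11 were called, so a change of this size was mostly not detectable at this level.

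The cytoplasmic scaffold gene dvl2, on chromosome 7 from 20008123 to 20043565, transmits signals from Frizzled receptors in both the canonical and the planar polarity branch. It had 144.58 RPM in 53 mGy/h (0 yr) embryos and 148.95 RPM in controls, a log2 change of -0.04 (FDR 0.447 in the authors' deposited table). Over the 5 groups its highest level was 1.12 times its lowest.

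The gene ezrb encodes a member of the ezrin, radixin and moesin family and lies on chromosome 20 from 13672080 to 13729608 on the minus strand. It had 114 RPM in 53 mGy/h (0 yr) embryos and 58.6 RPM in controls, a log2 change of 0.96 (0.84 relative to the median of well expressed genes). The FDR was 3.94e-06 in the authors' deposited table, and 15.3% of the genes in the table had a higher change. Its 3′ side overlaps the plus-strand gene sytl3 by 1100 bases, and the libraries were non-directional, so reads in these bases could come from either gene. The log2 change of sytl3 was also 0.96 (43.66 RPM at 53 mGy/h and 22.37 RPM in controls, FDR 2.44e-08 in the authors' deposited table). The part of shared reads in either value was not tested.

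**Figure D2:**
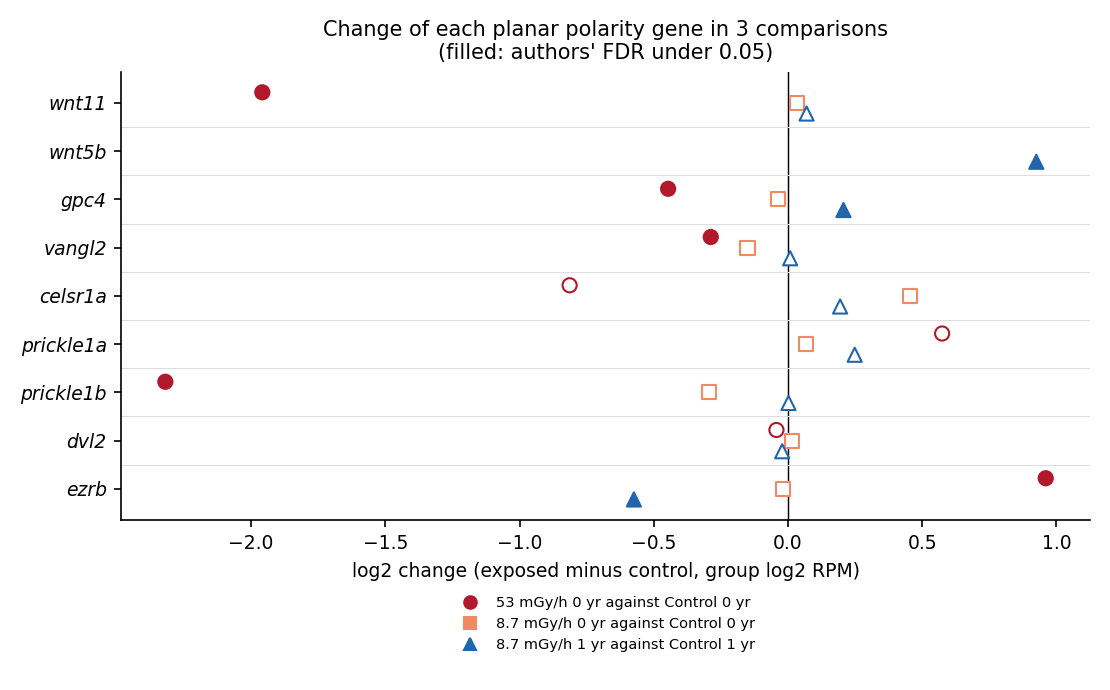
Log2 change, exposed minus control (horizontal axis), of each planar polarity gene (rows) at 53 mGy/h (0 yr, circles), 8.7 mGy/h (0 yr, squares) and 8.7 mGy/h (1 yr, triangles). Filled symbols have an FDR under 0.05 in the authors' deposited table. Circles run from -2.32 for prickle1b to 0.96 for ezrb, squares are all open, and wnt5b has a triangle alone because it is in the 1 yr table only.

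After parental exposure to 8.7 mGy/h, none of the 8 genes was called at 0 yr, in a table where 0.294% of genes were called, 0.143% lower and 0.151% higher. Levels of wnt11 were 70.49 RPM in 8.7 mGy/h (0 yr) embryos and 68.81 RPM in the same controls, and those of ezrb were 57.79 RPM in exposed embryos and 58.6 RPM in controls. The widest values were those of celsr1a, at 2.71 RPM in exposed embryos and 1.98 RPM in controls (log2 change 0.45), and of prickle1b, at 42.77 RPM in exposed embryos and 52.48 RPM in controls (log2 change -0.30). The authors' deposited table gives both an FDR of at least 0.937. The values of the other 6 genes lay between -0.15 (vangl2) and 0.07 (prickle1a). The smallest change called anywhere in this table was 0.60 in size, so changes of the size that gpc4 and vangl2 showed at 53 mGy/h were below any that this comparison called.

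The 2 dose rates share their 0 yr controls, so their levels are set side by side without a test. For wnt11, 17.71 RPM at 53 mGy/h stood beside 70.49 RPM at 8.7 mGy/h, and for prickle1b 10.51 RPM at 53 mGy/h stood beside 42.77 RPM at 8.7 mGy/h. For ezrb, 114 RPM at 53 mGy/h stood beside 57.79 RPM at 8.7 mGy/h. In these 3 genes the 53 mGy/h embryos stood apart from both other 0 yr groups.

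At 1 yr, 2 of the 9 genes were higher after exposure to 8.7 mGy/h (wnt5b and gpc4), and ezrb was lower. The ligand gene wnt5b had 8.65 RPM in 8.7 mGy/h (1 yr) embryos and 4.55 RPM in 1 yr controls, 1.90-fold higher with an FDR of 7.57e-07 in the authors' deposited table. Among all genes tested 42.4% were called, 22.4% lower and 20% higher, so 3 of 9 called is no more than the table's own share. The median log2 change of the 9 genes was 0.07, against -0.09 for all genes.

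The rise of wnt5b, a log2 change of 0.92, was larger than that of 98.6% of the genes in the table. It lies on chromosome 4 from 8531664 to 8662201, a span that holds 2 minus-strand genes, fbxl14b and si:ch73-211c7.2. Both were also called higher at 1 yr. The gene fbxl14b had 35.4 RPM in 8.7 mGy/h (1 yr) embryos and 24.34 RPM in controls, and si:ch73-211c7.2 had 1.42 RPM in exposed embryos and 0.69 RPM in controls. The control value of si:ch73-211c7.2 lay under 1.08 RPM, the lowest value that the higher group of any gene listed at 1 yr had. This gene was thus listed through its exposed value and could only be a rise. The libraries did not mark the strand, and the part of reads from these 2 genes in the level of wnt5b was not tested. At 53 mGy/h (0 yr), fbxl14b was lower, at 8.43 RPM in exposed embryos and 27.11 RPM in controls (FDR 2.77e-08 in the authors' deposited table).

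The gene gpc4 had 59.67 RPM in 8.7 mGy/h (1 yr) embryos and 51.71 RPM in controls, a log2 change of 0.21 with an FDR of 0.00408 in the authors' deposited table. The gene ezrb had 26.81 RPM in exposed embryos and 39.91 RPM in controls, a log2 change of -0.57 (FDR 4.78e-05 in the authors' deposited table). The overlapping sytl3 was lower as well, at 10.07 RPM in exposed embryos and 15.72 RPM in controls (log2 change -0.64). Both gpc4 and ezrb were called at 53 mGy/h (0 yr) in the opposite direction. The rise of gpc4 at 1 yr was small, and small rises at 1 yr may be called more readily, which was not tested.

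The other 6 genes were not called at 1 yr. Levels of prickle1b were 28.19 RPM in 8.7 mGy/h (1 yr) embryos and 28.15 RPM in controls, those of vangl2 241.4 RPM in exposed embryos and 240.05 RPM in controls, and those of dvl2 133.83 RPM in exposed embryos and 135.85 RPM in controls. These 3 genes thus had nearly equal values in both 1 yr groups. Levels of wnt11 were 102.31 RPM in exposed embryos and 97.51 RPM in controls (log2 change 0.07, FDR 0.109 in the authors' deposited table). For celsr1a they were 11.06 RPM in exposed embryos and 9.66 RPM in controls. For prickle1a they were 11.82 RPM in exposed embryos and 9.95 RPM in controls (log2 change 0.25, FDR 0.0747 in the authors' deposited table). At the level and change of prickle1a, 148 of 274 other genes were called, so it lay at the edge of what the authors' test called.

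**Figure D3:**
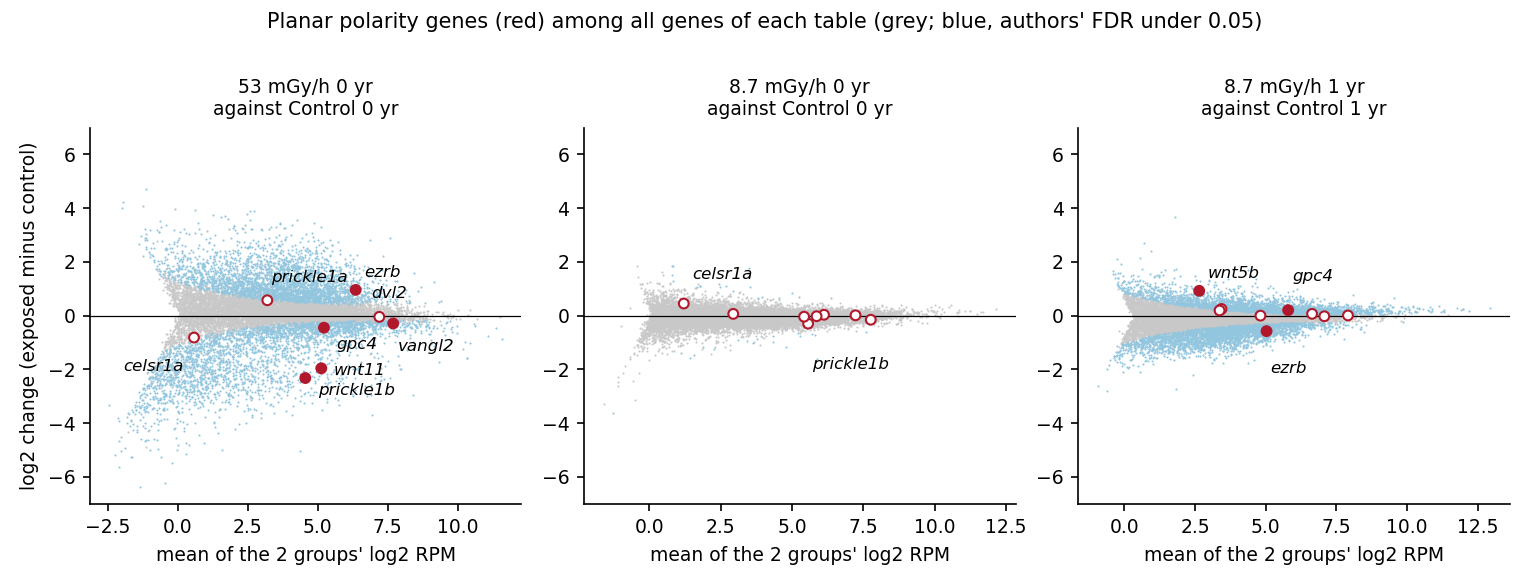
Log2 change, exposed minus control (vertical axis), against the mean of both groups' log2 RPM (horizontal axis) for every gene in each of the 3 tables. Blue points have an FDR under 0.05 in the authors' deposited table, grey points do not, and red circles are the planar polarity genes, filled where called. In the left panel wnt11 and prickle1b lie at -1.96 and -2.32. In the middle panel all members lie between -0.30 and 0.45, and in the right panel between -0.57 and 0.92.

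Levels also differed between the broods of unexposed parents. Control embryos of the 1 yr brood had 9.66 RPM of celsr1a and those of the 0 yr brood 1.98 RPM, a 4.88-fold difference that 0.314% of 12120 genes matched or passed. This difference between controls was larger than the differences of celsr1a between exposed and control embryos. For prickle1b, 28.15 RPM in the 1 yr controls stood against 52.48 RPM in the 0 yr controls. For wnt11 the controls were at 97.51 RPM (1 yr) and 68.81 RPM (0 yr), and for ezrb at 39.91 RPM (1 yr) and 58.6 RPM (0 yr). Of the 12120 genes, 11.1% matched or passed the difference of prickle1b, 29.7% that of ezrb and 34.6% that of wnt11. For prickle1a, gpc4, dvl2 and vangl2, whose controls differed less, these shares were 44.3%, 63.6%, 80.3% and 88.6%. The tables were made separately and carry no library values, so these differences were not tested. The median difference over all 12120 genes was -0.20 on the log2 scale.

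Ordered over the 5 groups, wnt11, gpc4, vangl2, celsr1a and prickle1b were lowest at 53 mGy/h (0 yr). The first 4 of these were highest at 8.7 mGy/h (1 yr), and prickle1b was highest in the 0 yr controls. The order of ezrb ran the other way, lowest at 8.7 mGy/h (1 yr) and highest at 53 mGy/h (0 yr). In the order of wnt11, the 8.7 mGy/h (0 yr) and control (0 yr) groups were neighbours that the authors' test did not separate, as were both 1 yr groups. The highest level was 9.82 times the lowest for celsr1a, 5.78 times for wnt11, 4.99 times for prickle1b, 4.25 times for ezrb and 1.29 times for vangl2.

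Other genes listed for the pathway, among them 12 adhesion and matrix genes of gastrulation movements, gave 61 rows at 53 mGy/h (0 yr). Of these rows 19 were lower, 6 of them adhesion and matrix genes, and 12 were higher. The shares of the 61 rows were 31.1% lower and 19.7% higher, against 21.5% lower and 22.1% higher among all genes. The median log2 change was 0.02, and -0.09 relative to the median of genes with a mean of at least 10 RPM. The median for all genes was 0.12. Receptor genes included the largest fall, that of the Frizzled receptor gene fzd3a, at 0.2 RPM in 53 mGy/h (0 yr) embryos and 1.61 RPM in controls. The Frizzled gene fzd7a, a receptor for Wnt11 in the gastrula, was lower as well, at 16.23 RPM in exposed embryos and 60.21 RPM in controls (FDR 1.04e-10 in the authors' deposited table). Of 10 listed receptor and co-receptor genes 4 were lower and 2 higher (40% and 20%, against the 21.5% and 22.1% of all genes). Among the 4 were fzd3a and fzd2 (0.22 RPM in exposed embryos and 1.13 RPM in controls), whose levels were low. Their exposed values lay under 0.58 RPM, the lowest value that the higher group of any gene listed at 53 mGy/h had. Both were thus listed through their control values and could only be falls. Asking for a mean of at least 1 RPM removed both and left 17 of the 19 lower calls.

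The other core polarity genes at 53 mGy/h held rises and no call in the lower direction, 4 higher of 9 (44.4%, against 22.1% of all genes). They were dvl1a, at 1.12 RPM in 53 mGy/h (0 yr) embryos and 0.19 RPM in controls, and prickle2a, at 18.05 RPM in exposed embryos and 4.51 RPM in controls (log2 change 2.00, FDR 3.11e-14 in the authors' deposited table), together with celsr3 and dvl3a. The gene prickle2a thus rose where prickle1b fell. The ligand gene wnt4a was also higher, at 1.48 RPM in exposed embryos and 0.4 RPM in controls. Levels of dvl1a and wnt4a were low, and both genes were listed for 53 mGy/h (0 yr) only. Their control values lay under 0.58 RPM, the lowest value that the higher group of any gene listed at 53 mGy/h had. Both were thus listed through their exposed values and could only be rises, and the 44.4% above includes dvl1a. Asking for a mean of at least 1 RPM removed both and left 10 of the 12 pathway genes called higher.

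Of 25 listed downstream effector genes, 7 were lower and 4 higher at 53 mGy/h, and these 28% and 16% lay near the 21.5% and 22.1% of all genes. The largest falls among them were those of rhoab (9.74 RPM in exposed embryos and 43.54 RPM in controls) and rhoaa (9.35 RPM in exposed embryos and 35.03 RPM in controls). The largest rise was that of arhgef11 (61.89 RPM in exposed embryos and 33.44 RPM in controls). Of 12 adhesion and matrix genes 6 were lower and 1 higher (50% and 8.33%). None of these shares was tested against that of all genes. The hyaluronan synthase gene has2 had 10.12 RPM in 53 mGy/h (0 yr) embryos and 78.65 RPM in controls, and snai1b, a Snail family repressor, had 1.84 RPM in exposed embryos and 12.58 RPM in controls. The gene that rose was fn1a, a fibronectin gene. Of the 2 listed cortical actin linkers besides ezrb, the moesin gene msna was lower, at 149.31 RPM in exposed embryos and 169.88 RPM in controls.

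**Figure D4:**
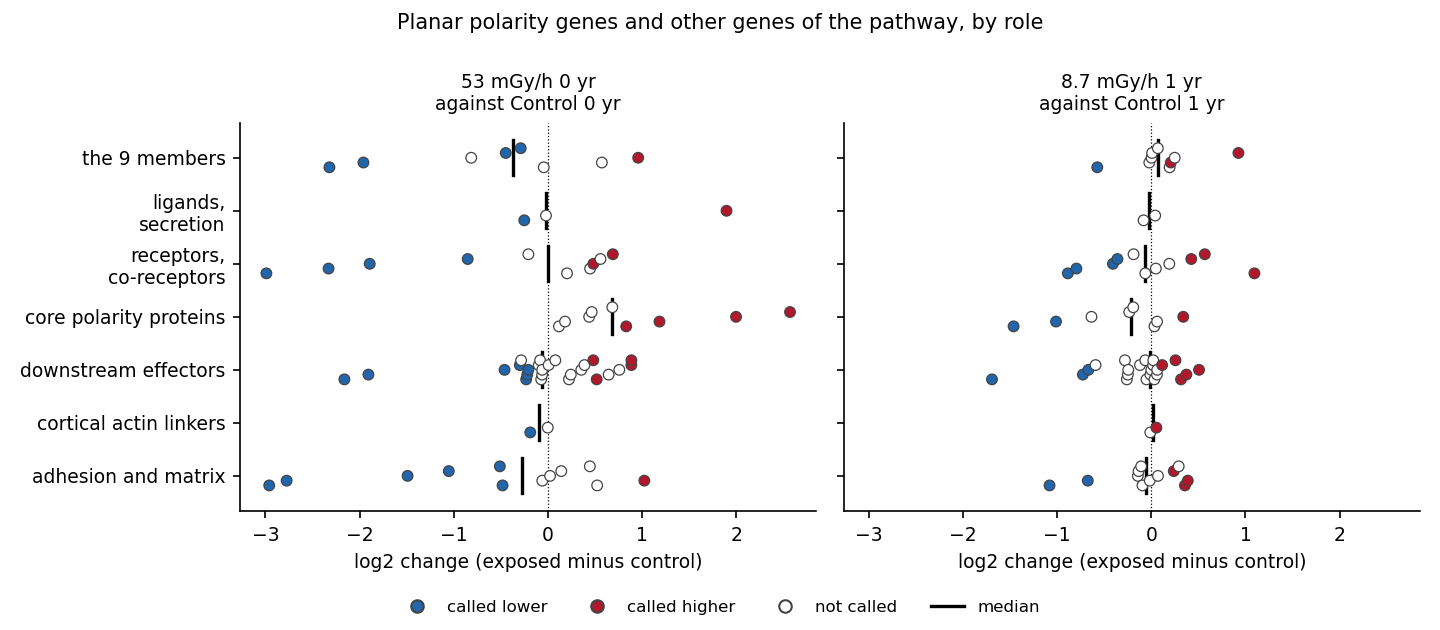
Log2 change, exposed minus control (horizontal axis), of the members and of the other pathway genes, grouped by role (rows), at 53 mGy/h (0 yr, left) and 8.7 mGy/h (1 yr, right). Each point is 1 gene, blue where called lower, red where called higher and white where not called, and black bars are medians. On the left the median of the members is -0.37 and that of the other core polarity genes 0.69.

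At 8.7 mGy/h (0 yr), 1 of 59 listed pathway genes was called (1.69%), where 0.294% of all genes were called and 0.143% were lower. It was the fibronectin gene fn1a, which was lower, at 14.32 RPM in exposed embryos and 28 RPM in controls. Against the same controls fn1a was called higher at 53 mGy/h (0 yr), at 56.99 RPM in exposed embryos. At 8.7 mGy/h (1 yr), 11 of 58 were lower and 13 higher, 19.0% and 22.4%, close to the shares of all genes. The kinase gene nlk2 was lowest in change, at 0.99 RPM in 8.7 mGy/h (1 yr) embryos and 3.2 RPM in controls. The gene prickle2a followed, at 2.26 RPM in exposed embryos and 6.23 RPM in controls, and then fyna, a Src family kinase gene, at 10.45 RPM in exposed embryos and 22.12 RPM in controls. The largest rises were those of fzd10, at 2.29 RPM in exposed embryos and 1.07 RPM in controls, and of fzd7a, at 67.34 RPM in exposed embryos and 45.42 RPM in controls. Next came jun, which encodes an AP-1 transcription factor, at 8.83 RPM in exposed embryos and 6.21 RPM in controls. The lowest value that the higher group of any gene listed at 1 yr had was 1.08 RPM. The control value of fzd10, which was listed at 1 yr only, and the exposed value of nlk2 lay under it. Thus fzd10 was listed through its exposed value and could only be a rise, and nlk2 through its control value and could only be a fall.

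The comparisons at 53 mGy/h (0 yr) and 8.7 mGy/h (1 yr) share no libraries. Among the other pathway genes, 8 were lower in the first and higher in the second, and 4 were higher in the first and lower in the second. Of the 8, fzd3a could only be a fall at 53 mGy/h, as said above. The rise of msna at 1 yr, also among the 8, was small (log2 change 0.05). Small rises at 1 yr may be called more readily, which was not tested. None of the other pathway genes was called in the same direction in both by the authors' FDR. Among all 12154 genes in both tables, 3144 were called in both, of which 44.4% were lower and then higher and 53.2% higher and then lower. Calls in the same direction made up 1.75% (lower) and 0.668% (higher). The opposite calls of gpc4 and ezrb are therefore what most genes called in both comparisons showed.

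**Figure D5:**
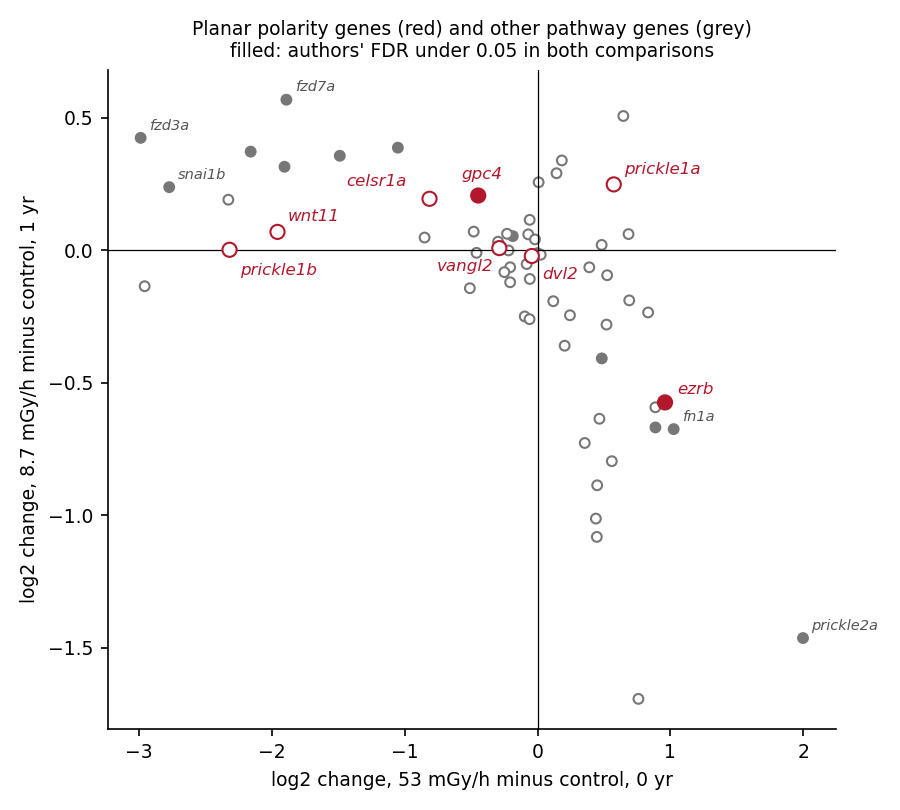
Log2 change at 8.7 mGy/h (1 yr, vertical axis) against log2 change at 53 mGy/h (0 yr, horizontal axis) for 8 planar polarity genes (red) and 56 other pathway genes (grey) listed in both tables. Filled points have an FDR under 0.05 in the authors' deposited table in both comparisons. The filled red points are gpc4, at -0.45 and 0.21, and ezrb, at 0.96 and -0.57, while wnt11 and prickle1b lie near 0 on the vertical axis.

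Markers of the margin and mesoderm, of the enveloping layer and of the yolk syncytial layer were mostly lower at 53 mGy/h as well. All 11 listed markers of the margin and of dorsal or ventral mesoderm were lower, with a summed level of 203 RPM in exposed embryos and 936 RPM in controls and a median log2 change of -2.00. They include the ventrally expressed genes vox, vent and szl, of which vox had 16.76 RPM in exposed embryos and 140.57 RPM in controls and szl had 0.08 RPM in exposed embryos and 6.24 RPM in controls. Enveloping layer markers were lower in 12 of 12 cases (388 RPM in exposed embryos and 1578 RPM in controls), and yolk syncytial layer markers in 6 of 7 (133 RPM in exposed embryos and 479 RPM in controls). The exception was creb3l3l, which was higher. The exposed values of szl and of the enveloping layer marker krt17 (0.14 RPM, and 1.09 RPM in controls) were near the floor. They lay under 0.58 RPM, the lowest value that the higher group of any gene listed at 53 mGy/h had. These 2 markers were thus listed through their control values and could only be falls, and the size of each fall is uncertain. Maternally supplied transcripts were higher in 6 and lower in 2 of 14 cases (4311 RPM in exposed embryos and 3120 RPM in controls). The 2 lower transcripts were org and pou5f3, and 6 transcripts were not called. Among all genes 21.5% were called lower and 22.1% higher. The lists were chosen with earlier results of these data known, and their shares were not tested against those of all genes. No gene listed at 53 mGy/h was at 0, the lowest levels being 0.03 RPM in exposed embryos and 0.06 RPM in controls. Whether a marker was lost therefore cannot be told, since markers that were not listed have no level. Listed were 11 of 12 margin and mesoderm markers, 12 of 14 of the enveloping layer and 7 of 10 of the yolk syncytial layer. Of the maternally supplied transcripts 14 of 15 were listed. The part of these marker shifts in the changes of wnt11, prickle1b and ezrb was not tested.

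At 8.7 mGy/h (1 yr) the calls of these lists lay mostly in the other direction. Markers of the margin and of dorsal or ventral mesoderm were higher in 9 of 12 cases (1533 RPM in exposed embryos and 1308 RPM in controls), and enveloping layer markers in 13 of 14 (4293 RPM in exposed embryos and 3411 RPM in controls). Yolk syncytial layer markers were higher in 7 of 8 cases (1259 RPM in exposed embryos and 855 RPM in controls). Maternally supplied transcripts were lower in 9 and higher in 2 of 14 (2214 RPM in exposed embryos and 2566 RPM in controls). The 2 higher transcripts were org and pou5f3. The markers tbx6l, anxa1b, anxa1c and apoa1b were listed at 1 yr only, and all were higher, so the lists differ from those at 0 yr. For apoa1b the control value of 0.83 RPM lay under 1.08 RPM, the lowest value that the higher group of any gene listed at 1 yr had. It was thus listed through its exposed value (4.45 RPM) and could only be a rise. Among all genes at 1 yr, 22.4% were called lower and 20% higher. At 8.7 mGy/h (0 yr) no marker in the 4 lists was called, where 0.294% of all genes were. The part of these shifts in the changes of wnt5b, gpc4 and ezrb was not tested.

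Genes with the pattern most like each member over the 5 groups were found by the Euclidean distance of their log2 RPM, each gene centred on its own mean. Nearest to wnt11 were eif4a2, a translation factor gene, at a distance of 0.093, and si:dkey-199m13.6 at 0.10. Nearest to prickle1b were a gene that carries only a clone name and colec12, both at 0.19, and nearest to ezrb were nadkb at 0.051 and CAPN1 (1 of 2) at 0.065. The ribosomal protein gene rps25 was nearest to gpc4 (0.052), luc7l to vangl2 (0.062), CEP250 to prickle1a (0.13) and irf5 to dvl2 (0.025). The nearest to celsr1a was sort1b, farther away at 0.29. Distances are small for genes of nearly constant level, such as dvl2.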

How the data were processed

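Libraries were poly(A)-selected, non-directional and read as 150 bp paired ends, per the labels' protocols. The submitters' processing notes list the build GRCz10 and the tools DESeq2, STAR 2.5.2b, FastQC 0.11.5 and Trim Galore 0.4.2, with no account of their use. The authors deposited 1 log2 RPM value and 1 RPM value for each group and gene (read numbers scaled to the size of the library). They also deposited the ratio of exposed to control, a signed fold change (a score that is negative where the exposed value is lower) and an FDR, an adjusted p-value. The tables do not name the test behind the FDR, and it served as the only test here, since values of single libraries were not used here.

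Log2 changes, counts, medians and pattern distances were computed with Python 3.11.15, numpy 2.4.6 and pandas 2.3.3, and plots with matplotlib 3.10.9. Depth was the smallest at which the 150 lowest group values at or above 0.4 RPM, raised to the number of libraries, became whole (tolerance 0.04). All did with the labelled number of libraries (100%), and 20 to 23.3% with a wrong number. The search was tested on simulated data. The members and lists were chosen with earlier results of these data known. Named were all members, the 3 called pathway genes with the largest fall and rise in each comparison, and the 2 nearest patterns among 12104 genes in all 3 tables with a mean of at least 1 RPM. Further pathway genes, markers and overlapping genes were named after their values were seen. The pathway list had 86 genes, of which 63 were in some table.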

Additional observations from a re-analysis of the deposited data

How the results depend on the processing

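Of the members, 4 lower and 1 higher were called at 53 mGy/h (0 yr), and asking also for a change of at least 2-fold left 2 and 0. At 8.7 mGy/h (1 yr) it left 0 lower and 0 higher. For the other pathway genes it left 9 lower and 5 higher at 53 mGy/h, 0 lower at 8.7 mGy/h (0 yr), and 4 lower and 1 higher at 1 yr. At an FDR under 0.01 the pathway genes called higher at 53 mGy/h numbered 7. Relative to the median of genes with a mean of at least 10 RPM, the median log2 change at 53 mGy/h was -0.48 for the members and -0.092 for the other pathway genes. The same centring, and centring on all genes, turned 3 uncalled values of members close to 0: gpc4 at 8.7 mGy/h (0 yr) to 0.00053 and 0.0058, ezrb there to 0.018 and 0.023, and dvl2 at 1 yr to 0.031 and 0.069. Under log2 of RPM + 1 and the signed fold change column, 0 of 25 member values turned. The other 42 values of counts and medians stayed within 1.5 times the count or 0.1 of the median. They came from FDR limits of 0.01 and 0.10, a mean of at least 1 RPM, centring and log2 of RPM + 1. They also include counts at 8.7 mGy/h (0 yr) that were already 0 and could not fall when a 2-fold change was asked for. Within 1.5 times the count, calls still moved. Other pathway genes called lower at 53 mGy/h numbered 19, and 13 at an FDR under 0.01. Members called lower at 53 mGy/h numbered 3 at an FDR under 0.01, without vangl2, and 5 at an FDR under 0.10, with celsr1a. Members called higher at 1 yr numbered 3 at an FDR under 0.10, with prickle1a. No paired analysis was possible because the tables hold 1 value per group, and leaving out single libraries was not run for the same reason. Depth limits celsr1a most, with about 31 reads per library at 53 mGy/h.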
